A study of Mus musculus with 34 samples.

Results

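The Mta genes encode subunits of the nucleosome remodelling and deacetylation (NuRD) complex, and 10 genes whose proteins associate with it were followed here: Sall1, Sall2, Sall3, Sall4, Zfp296, Zfp219, Zfp512b, Zfp592, Zfp687 and Wdr5. They were chosen as named NuRD-interacting proteins and matched to the count files by Ensembl gene identifier. All 10 were found among the 48709 genes listed for Control and Mta123KO cells and among the 22018 genes listed for the single Mta mutants.

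RNA was sequenced from mouse embryonic stem (ES) cells of strain 129/Ola in 34 libraries. The single-mutant set held 3 libraries each of Mta1_del/del and Mta1_flox/flox, Mta2_KO and Mta2_WT, and Mta3_del/del and Mta3_flox/flox cells, 18 libraries in all, grown in 2i+LIF (2iL), in which a pair of kinase inhibitors and the cytokine LIF hold mouse ES cells in self-renewal. The second set held 16 libraries, 4 each of Control and Mta123KO cells labelled 2iL and of Control and Mta123KO cells labelled as cultured for 48 hours without inhibitors and LIF, towards neuroectoderm. The deleted Mta1 and Mta3 alleles were made by Cre from floxed alleles, the Mta2 mutant is given in the study as a single line, and Mta123KO cells lack all MTA proteins. The study gives the Control line as one derived alongside the parent of the Mta123KO cells. It calls such cells wild type where it describes expression, and elsewhere describes control cells with a Flox/- genotype at Mta1 and floxed Mta3 alleles, so that the Mta alleles of the Control libraries used here were not settled. Replicates of the second set are named 1_1, 1_2, 2_1 and 2_2, and their leading number was read as the cell line. Nothing in the labels says that libraries of a line came from separate cultures, so that p-values measure the spread between libraries.

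NuRD removes acetyl groups from histones and slides nucleosomes, and it is brought to sites on DNA by transcription factors. The 4 Sall proteins are zinc finger transcription factors that bind NuRD through a short motif at their N-terminus, which they share with the Friend-of-GATA (FOG) proteins. Sall4 is needed by the pluripotent cells of the early embryo, and Sall1 is best known from kidney development. Zfp592 and Zfp687 are related zinc finger proteins that work with the chromatin reader Zmynd8, while Wdr5 is a WD-repeat protein and a shared core subunit of the COMPASS complexes that methylate histone H3 lysine 4.

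The sequences that set the Sall genes apart are their coding starts, shown for 2 of them beside 3 of the other genes as the first 36 bases (12 codons) with the codons for arginine, arginine, lysine and glutamine in capitals. They were read from the GENCODE vM21 transcripts of GRCm38.
Sall2 from its upstream start (chr14:52328140-52328175, minus strand): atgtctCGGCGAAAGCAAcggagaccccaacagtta
Sall4 (chr2:168766994-168767029, minus strand): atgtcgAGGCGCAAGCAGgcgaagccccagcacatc
Sall2 from its downstream start (chr14:52316074-52316109, minus strand): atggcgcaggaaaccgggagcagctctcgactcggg
Zfp296 (chr7:19577382-19577417, plus strand): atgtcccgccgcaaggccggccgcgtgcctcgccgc
Zfp592 (chr7:81023290-81023325, plus strand): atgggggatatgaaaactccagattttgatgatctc
Zfp687 (chr3:95012424-95012459, minus strand): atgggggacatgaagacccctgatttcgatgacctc
The 4 codons stood at codons 3 to 6 in Sall2, Sall3 and Sall4. Of 21590 protein-coding genes with an annotated start, 18 (0.0834%) held them in this order within the first 10 codons; any codon for each residue was accepted. The 6 genes outside the Sall family did not hold all 4. Zfp296 had the first 3 of them in a row. The downstream start of Sall2 leads to a protein without the motif, and counts per gene do not tell the transcripts apart. Between Zfp592 and Zfp687, 30 of 36 bases were the same and all 12 codons stood for the same residues.

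The levels of Sall2 and Zfp296 varied most between groups of the second set, and the 250 bases before a RefSeq start site (GRCm38.p6) are shown for both.
Sall2, downstream start (chr14:52316324-52316573, minus strand): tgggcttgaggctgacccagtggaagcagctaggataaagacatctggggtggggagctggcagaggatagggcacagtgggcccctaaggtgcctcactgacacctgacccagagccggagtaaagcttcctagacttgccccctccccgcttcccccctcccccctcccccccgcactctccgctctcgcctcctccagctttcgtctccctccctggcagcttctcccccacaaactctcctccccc
Zfp296 (chr7:19577037-19577286, plus strand): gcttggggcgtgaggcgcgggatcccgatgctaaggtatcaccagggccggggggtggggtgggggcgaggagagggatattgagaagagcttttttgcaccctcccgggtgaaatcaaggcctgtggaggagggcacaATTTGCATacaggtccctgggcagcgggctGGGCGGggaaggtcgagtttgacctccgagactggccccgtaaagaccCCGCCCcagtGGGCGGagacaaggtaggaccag
Capitals mark matches on either strand to the octamer ATTTGCAT, to the GC box with the letters GGGCGG, to the CCAAT box and to the TATA box with the letters TATAAA, which do not overlap each other here. Zfp296 held 1 octamer, found in 1.60% of 32851 promoter windows of the same length, and 3 GC boxes, where 32.7% of windows held 1 or more. All shares here are of windows with 1 or more matches. The Sall2 window held none of the 4, and the window at the upstream start of Sall2 (chr14:52328671-52328920) held 1 CCAAT box and 1 TATA box, found in 33.8% and 12.4% of windows. These letters are a description of the windows and no measure of binding.

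Each library of single mutants held 13105820 to 40613585 counts, and each of the other 16 held 37855790 to 57602285. The lowest count of any of the 10 genes in any of them was 101 (Sall2). Levels are given as CPM (a library's counts scaled to a fixed total), scaled by the TMM method over all libraries of a set. Groups were compared with edgeR's quasi-likelihood test, and a gene was taken as changed at a Benjamini-Hochberg adjusted p under 0.05 over all genes tested. Of the targeted genes, Mta2 fell by 4.50 on the log2 scale in Mta2_KO and by 4.17 and 4.53 in Mta123KO cells labelled 2iL and 48h. Mta3 fell by 2.63 in Mta3_del/del. Values of Mta1 and Mta3 in Mta123KO cells are not given here. Mta1 was at -0.97 on the log2 scale in Mta1_del/del cells (edgeR adjusted p = 1), where the Cre deletion takes out 1 exon. ES cell identity was checked on Pou5f1, Sox2, Utf1 and Dppa4, all of which were at 1 CPM or more in every group. The culture labels of the second set are opposite to the names of its deposited files, and the naive pluripotency gene Nanog was at 67.6 ± 15.5 CPM (SD, n = 4) in Control libraries labelled 2iL and at 934 ± 79.7 CPM in those labelled 48h, although naive genes are known to fall when 2iL is withdrawn. The 8 naive genes summed to 158 to 244 CPM in Control labelled 2iL and 3678 to 4055 labelled 48h. In the single-mutant set, grown in 2iL, they summed to 3226 to 5819. The 6 formative and primed epiblast genes summed to 860 to 1418 CPM, 77.1 to 88.7 and 81.6 to 229 in the same order. On both lists, Control libraries labelled 48h were nearer the single-mutant set than those labelled 2iL. The labels were followed, so every culture direction below is that of the labels, and exchanging them would exchange the 2 comparisons of Mta123KO with Control and reverse every difference between cultures.

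Per kilobase of exon, Sall4 and Wdr5 were the highest of the 10 genes in each of the 10 groups, and Sall2 or Sall3 the lowest. In Control cells labelled 2iL, Sall4 stood at 45.0 CPM per kb (42.2 to 47.8 over 4 libraries), Wdr5 at 35.3, Sall1 at 20.7, Zfp219 at 14.7, Sall2 at 12.3, Zfp687 at 10.3, Zfp512b at 4.95, Zfp592 at 4.37, Zfp296 at 3.81 and Sall3 at 0.933. Neighbours in this order overlapped for Sall2 with Zfp687, Zfp512b with Zfp592 and Zfp592 with Zfp296. In Control cells labelled 48h, Sall2 was last at 1.55 CPM per kb, and Zfp296 stood at 12.5. The highest library of Sall2 in the second set had 31.1 times the CPM of its lowest. Zfp219 and Zfp687 spanned 1.32 and 1.42 times in the same 16 libraries.

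The question asked of each mutant was whether loss of MTA proteins went with a change in these genes. In Mta1_del/del cells, none of the 10 changed in either direction, and 0 of 14561 genes tested did (0% higher, 0% lower), nor did DESeq2 call any gene. At an unadjusted p under 0.05 there were 50 genes in edgeR, or 468 blocked by replicate number, and none of the 10 in either fit. In Mta2_KO cells, 5 of the 10 were higher (23.5% of all genes tested) and 2 were lower (24.3%). In Mta3_del/del cells, 3 of the 10 were higher (8.32% of all genes) and none was lower (7.84%), also by DESeq2 and at an unadjusted p under 0.05. In Mta123KO cells labelled 2iL, 4 were higher (27.1%) and 3 lower (24.2%), and in those labelled 48h, 2 were higher (26.6%) and 3 lower (23.4%). The median log2 fold change of the 10 genes was 0.09, 0.26, 0.25 and -0.06 in these last 4 comparisons, against 0.00, -0.01, 0.01 and 0.01 over all genes tested. Of these shares, the 5 of 10 that were higher in Mta2_KO and the 3 of 10 that were higher in Mta3_del/del cells lay farthest above the share over all genes, with no test made of either count. In 1 fit of all 18 libraries the Mta2_KO counts were 2 higher and 1 lower, beside 1252 and 1370 of all 16271 genes tested. DESeq2 gave 4 and 4, beside 3287 and 3470 of 17043 genes. With summed lines the Mta123KO counts were 2 higher and 1 lower labelled 2iL, beside 2253 and 1505 of 24467 genes. Labelled 48h they were 0 and 2, beside 2568 and 1517 of 23899 genes. The Mta3 count depended on single libraries: without Mta3_del/del replicate 1 it was 0, without Mta3_del/del replicate 3 or Mta3_flox/flox replicate 2 it was 1, and without Mta3_del/del replicate 2 it was 5. So did the number of all genes changed in that comparison. It was 2508 with every library, 3 without Mta3_del/del replicate 1 and 4131 without Mta3_del/del replicate 2.

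**Figure D1:**
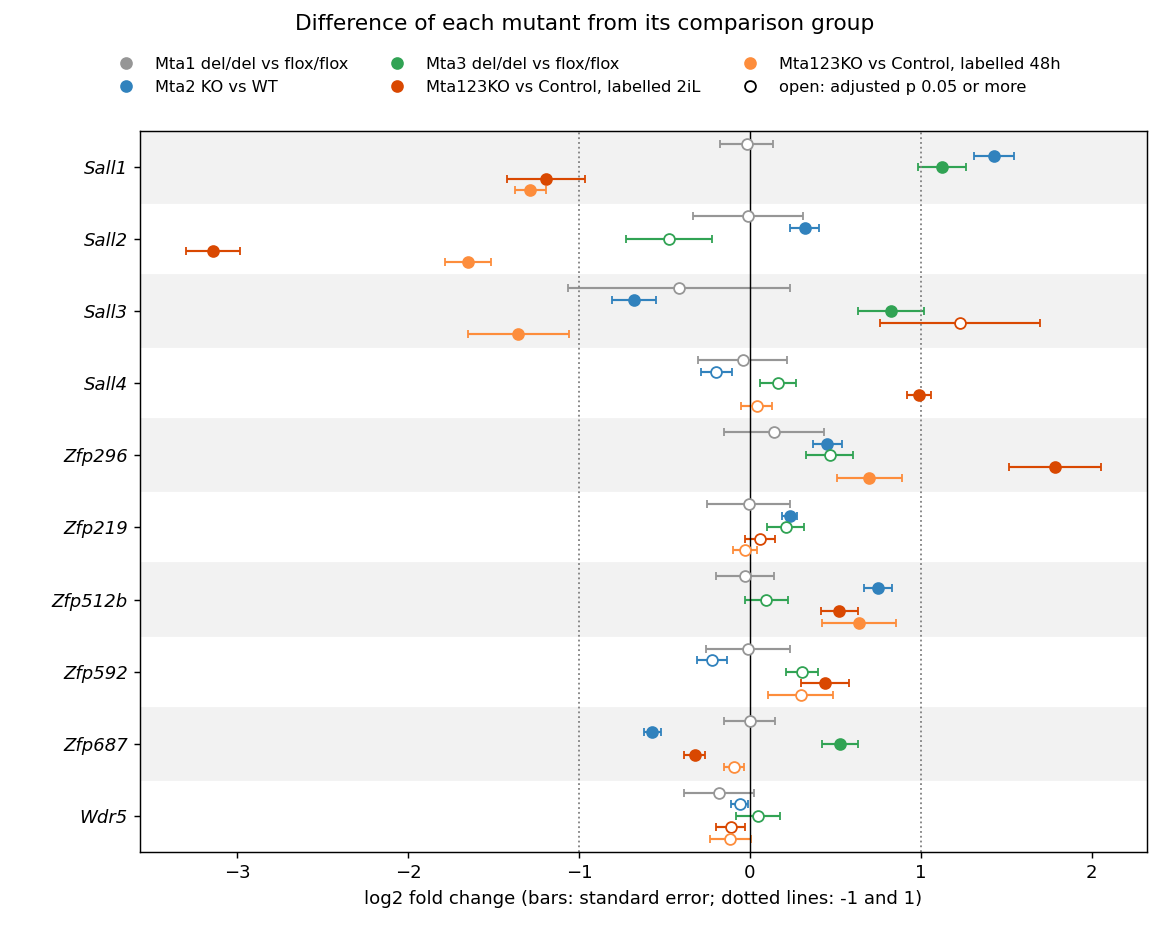
Log2 fold change (x axis, bars are standard errors) of the 10 genes (y axis) in 5 comparisons of a mutant with its parent or Control group, coloured by comparison. Filled points have an adjusted p under 0.05. Sall1 lies above 1 in Mta2_KO and Mta3_del/del and below -1 in both Mta123KO comparisons, while Wdr5 has only open points.

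Sall1 (chr8:89027235-89044162) moved in opposite directions in the single and the triple mutants. It rose 2.69-fold in Mta2_KO cells and 2.18-fold in Mta3_del/del cells, did not pass the test in Mta1_del/del cells, and fell in Mta123KO cells under both culture labels. Its CPM in the 3 Mta2_WT libraries was 39.6, 42.8 and 31.1 and in the 3 Mta2_KO libraries 107, 89.8 and 111. In Mta3_flox/flox it was 98.3, 78.6 and 73.3 and in Mta3_del/del 178, 209.95 and 179. The groups did not overlap in either series, and the log2 differences were 1.43 ± 0.12 (SE, edgeR adjusted p = 1.07e-05) and 1.12 ± 0.14 (adjusted p = 0.0141). The Mta3 call was lost without Mta3_del/del replicate 1 (adjusted p = 0.0765). Parental levels differed widely, from 37.8 ± 6.02 CPM in Mta2_WT to 224 ± 35.7 in Mta1_flox/flox, so that the raised level of Mta2_KO (103 ± 11.2) lay under that of the Mta1 parent.

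In the second set, Sall1 was at 109, 108, 115 and 103 CPM in Control libraries labelled 2iL, in the order 1_1, 1_2, 2_1 and 2_2. The Mta123KO libraries labelled 2iL had 30.3 and 33.985 CPM in line 1 and 61.9 and 62.0 in line 2. All 4 were below every Control library, and the lines of the mutant differed from each other. The log2 difference was -1.19 ± 0.23 (edgeR adjusted p = 0.00233), and with the libraries of a line summed the adjusted p was 0.0691. Labelled 48h, Control cells had 121, 105, 125 and 129 CPM and Mta123KO cells 46.7, 44.1, 53.5 and 52.2. Here the difference was -1.28 ± 0.09 (adjusted p = 9.26e-06), and it kept its call with summed lines. Between culture labels Sall1 did not pass the test in Control (0.16 ± 0.07, adjusted p = 0.0656) or Mta123KO cells (0.06 ± 0.24, adjusted p = 0.891). Blocked by replicate number, the Control difference passed it (0.16, adjusted p = 0.0369), but with summed lines it did not (0.116). Reads of bulk libraries cannot tell fewer cells expressing a gene from less RNA per cell, here and in all results that follow.

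Sall2 (chr14:52311172-52328762) had the largest loss of the 10 genes in Mta123KO cells. Control libraries labelled 2iL had 72.6, 57.2, 70.9 and 65.7 CPM, and Mta123KO libraries labelled 2iL had 6.58, 5.85, 9.54 and 7.88. Labelled 48h, Control had 7.62, 8.57, 8.05 and 9.37 CPM and Mta123KO 2.33, 3.12, 2.48 and 2.70. Within each culture label the genotypes were far apart and libraries of a genotype close together, in both lines. The log2 difference of Mta123KO from Control was -3.14 ± 0.16 labelled 2iL (edgeR adjusted p = 2.69e-06) and -1.65 ± 0.14 labelled 48h (adjusted p = 2.15e-05).

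Sall2 also fell from libraries labelled 2iL to those labelled 48h in both genotypes, by 2.97 ± 0.09 on the log2 scale in Control (edgeR adjusted p = 2.03e-09) and by 1.49 ± 0.18 in Mta123KO cells (adjusted p = 9.68e-04). The Mta123KO call was lost with summed lines, where 0 genes changed between labels in these cells. The Mta123KO libraries labelled 2iL were at about the level of Control libraries labelled 48h (7.46 ± 1.62 and 8.40 ± 0.756 CPM, n = 4 each). The 2 genotype differences were unequal on the log2 scale (1.501 ± 0.20, adjusted p = 5.94e-05), and this test kept its call with summed lines. In the single-mutant set Sall2 was low in mutants and parents alike, from 6.79 to 25.5 CPM over 18 libraries, under every Control library labelled 2iL. It was at 7.17, 6.97 and 6.79 CPM in Mta2_WT and 8.33, 8.91 and 9.02 in Mta2_KO, a small rise of 0.32 ± 0.09 that DESeq2 did not call (adjusted p = 0.0614), that was lost without Mta2_KO replicate 3 (0.0521) and that went the other way from Mta123KO. The other single mutants gave -0.01 ± 0.32 (Mta1) and -0.47 ± 0.25 (Mta3), neither past the test.

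Sall3 (chr18:80966376-80986771) was the gene whose Mta123KO lines differed most. Control libraries labelled 2iL had 6.89, 5.22, 8.62 and 7.19 CPM. Mta123KO line 1 labelled 2iL, at 6.18 and 7.30 CPM, lay inside the Control range, while line 2, at 27.1 and 24.1, lay above it by 3.67-fold of the means. The log2 difference over both lines was 1.23 ± 0.47 (edgeR adjusted p = 0.0527), and it passed the test without either line 1 library (adjusted p = 0.0132 and 0.0218) and in DESeq2 (0.0154). It also passed in 1 fit of all 16 libraries, without the filter on low counts and with spike-in scaling, but not blocked by replicate number (0.0719) or with summed lines (0.243). Labelled 48h, Control had 27.2, 17.8, 28.0 and 22.7 CPM and Mta123KO 5.78, 5.76, 13.7 and 11.975, lower in both lines, with line 2 again above line 1. The difference was -1.35 ± 0.30 (adjusted p = 0.00469, and 0.0678 with summed lines).

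Between culture labels Sall3 rose in Control cells by 1.79 ± 0.17 on the log2 scale (edgeR adjusted p = 5.08e-06), and in Mta123KO cells it was at -0.80 ± 0.54 (adjusted p = 0.328). Blocked by replicate number, the Mta123KO value was -0.64 (adjusted p = 0.0146). The difference between these responses was -2.57 ± 0.60 (adjusted p = 0.00565), and with summed lines -2.60 (adjusted p = 0.171). Sall3 fell in Mta2_KO (11.1, 14.9 and 12.6 CPM in the parent, 8.96, 7.34 and 7.88 in the mutant, -0.68 ± 0.13, adjusted p = 0.00201) and rose in Mta3_del/del (8.96, 6.60 and 8.08 against 17.4, 12.3 and 13.9 CPM, 0.83 ± 0.19, adjusted p = 0.0281). Both calls were lost in 1 fit of all 18 libraries (adjusted p = 0.384 and 0.183), and that of Mta3_del/del without any of 4 of its 6 libraries. In the Mta1 series it ran from 10.9 to 57.5 CPM over 6 libraries with no order by genotype, and replicate 3 was the lowest of each genotype.

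Sall4 (chr2:168748332-168767943) rose in Mta123KO cells labelled 2iL and did not pass the test in those labelled 48h. Control libraries labelled 2iL had 255, 234, 243 and 265 CPM and Mta123KO libraries 446, 468, 525 and 515. The groups did not overlap, and the difference was 0.99 ± 0.07 on the log2 scale (edgeR adjusted p = 1.47e-05), kept with summed lines. Labelled 48h, Control had 350.3, 331, 299 and 324 CPM and Mta123KO 294, 303, 363 and 372, overlapping ranges with a difference of 0.04 ± 0.09 (adjusted p = 0.746). Sall4 was higher in Control labelled 48h than 2iL (0.40 ± 0.06, adjusted p = 2.12e-04) and lower in Mta123KO labelled 48h than 2iL (-0.56 ± 0.10, adjusted p = 0.00557). The latter call was lost with summed lines. The responses differed by -0.94 ± 0.12 (adjusted p = 4.50e-05, and 0.0506 with summed lines). Sall4 did not pass the test in any single mutant (-0.04 ± 0.26 for Mta1, -0.20 ± 0.09 for Mta2 and 0.17 ± 0.10 for Mta3), although DESeq2 called the Mta2 difference (adjusted p = 0.0375). Its exons share 526 bases with Gm14261 on the opposite strand.

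**Figure D2:**
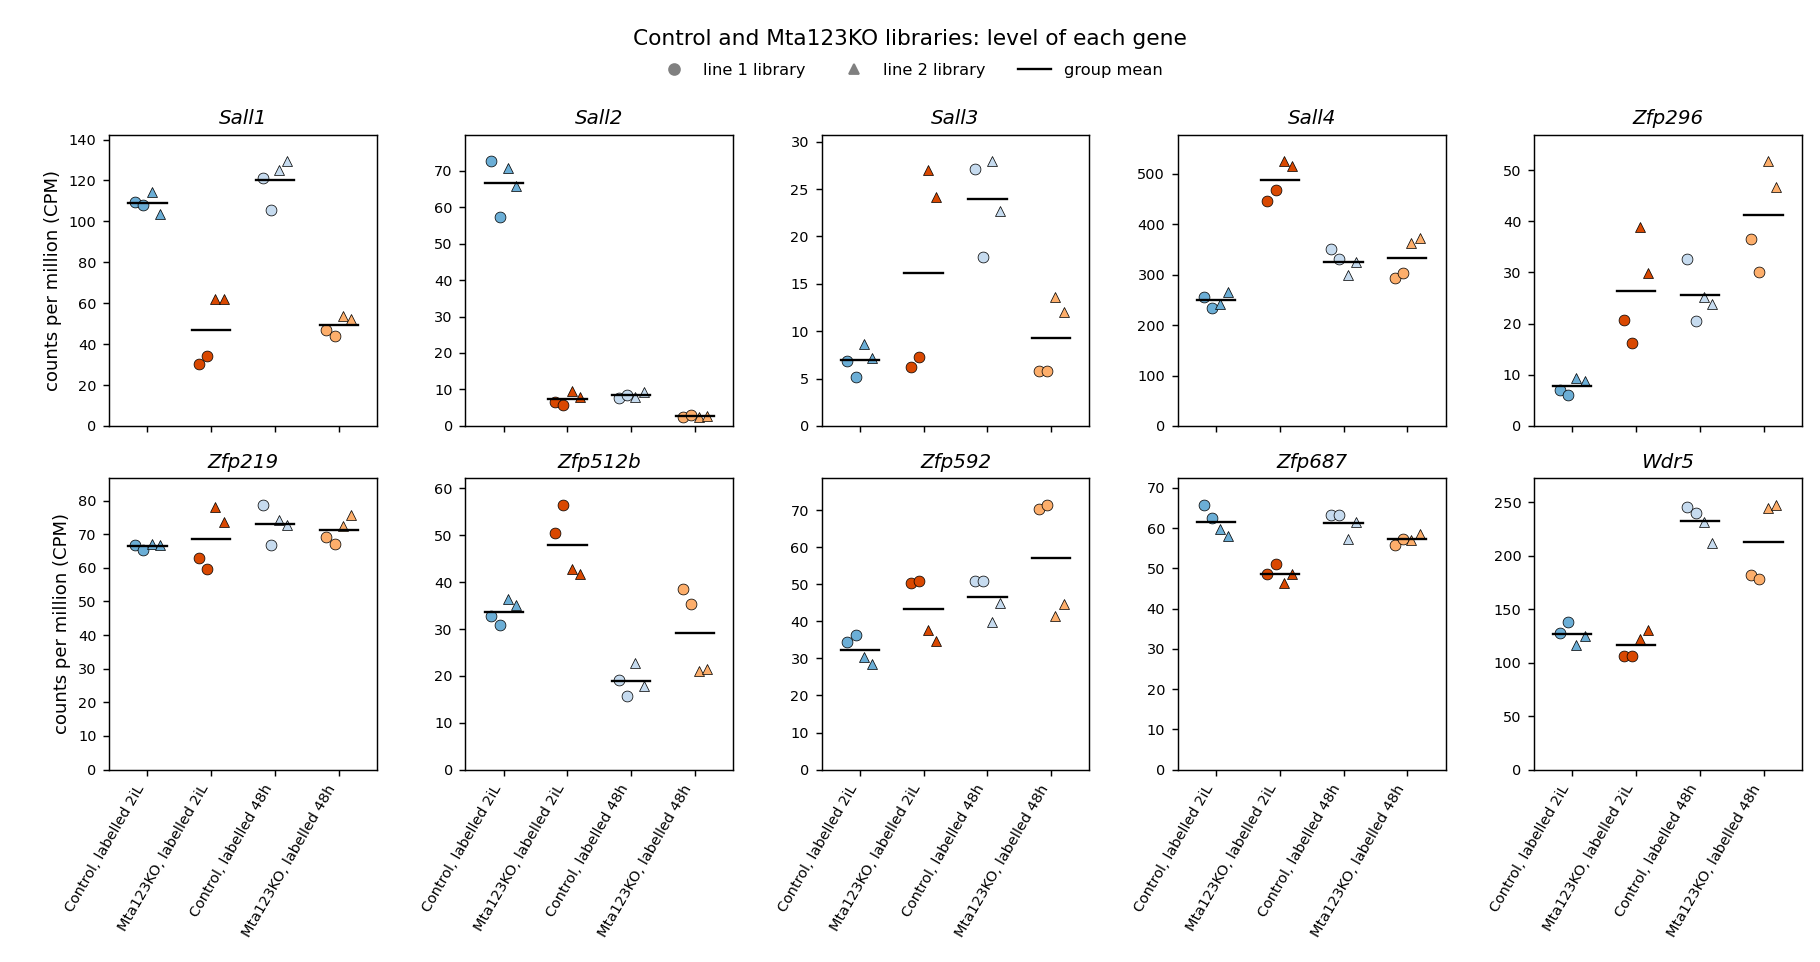
CPM (y axis, from 0, scaled per gene) of the 10 genes in the 16 libraries of Control and Mta123KO cells, by group (x axis). Circles are line 1, triangles line 2 and bars group means. Sall1 and Sall2 are lower in Mta123KO than in Control under both labels. Mta123KO libraries split by line for several genes, among them Sall1, Sall3, Zfp296, Zfp512b and Zfp592.

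Zfp296 (chr7:19577287-19580656), a zinc finger gene active in ES cells, was the member that rose most in Mta123KO cells. Control libraries labelled 2iL had 7.03, 6.05, 9.28 and 8.69 CPM, and Mta123KO libraries had 20.8, 16.3, 38.8 and 29.9. Every mutant library was above every Control library, and line 2 was above line 1 (4.43-fold and 2.39-fold over the Control mean). The difference was 1.79 ± 0.27 on the log2 scale (edgeR adjusted p = 6.02e-04) and was kept with summed lines. Labelled 48h, Control had 32.7, 20.5, 25.1 and 23.8 CPM and Mta123KO 36.5, 30.0, 51.7 and 46.6. These groups overlapped in line 1, the difference was 0.70 ± 0.19 (adjusted p = 0.0128), and it was lost with summed lines (0.0995) and with spike-in scaling (0.117).

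In Control cells Zfp296 was 3.33-fold higher in libraries labelled 48h (1.73 ± 0.16 on the log2 scale, edgeR adjusted p = 5.12e-06). In Mta123KO cells the difference between labels was 0.64 ± 0.28 (adjusted p = 0.141), or 0.68 blocked by replicate number (adjusted p = 5.77e-04). The 2 responses differed by -1.08 ± 0.35 (adjusted p = 0.0345), a call lost in 8 of the 16 fits that each left out 1 library and with summed lines (adjusted p = 0.261). In Mta2_KO cells Zfp296 rose from 33.4, 36.1 and 31.2 CPM to 51.1, 41.2 and 46.2 (0.45 ± 0.09, adjusted p = 0.00203), a call lost in 1 fit of all 18 libraries (0.177). In Mta3_del/del cells it was at 0.47 ± 0.14 (adjusted p = 0.0509, and 0.0215 in DESeq2). Exons of Zfp296 share 263 bases with Gemin7 on the opposite strand, and whether counting used the strand is not given in the sources used here.

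Zfp512b (chr2:181582103-181592803) was higher in Mta2_KO and in Mta123KO cells under both labels. It went from 15.3, 15.4 and 13.6 CPM in Mta2_WT to 26.0, 23.1 and 25.7 in Mta2_KO, without overlap (0.75 ± 0.08 on the log2 scale, edgeR adjusted p = 5.76e-05). Labelled 2iL, it ran from 30.8 to 36.3 CPM in Control and from 41.8 to 56.5 in Mta123KO (0.52 ± 0.11, adjusted p = 0.00333, and 0.0973 with summed lines). Labelled 48h, line 1 of Mta123KO had 38.6 and 35.4 CPM and line 2 21.0 and 21.5, against 15.7 to 22.7 in Control. Only line 1 was above the Control range there, and the difference of 0.64 ± 0.22 (adjusted p = 0.0344) was lost with the block (0.0798), spike-in scaling (0.170), summed lines (0.190) and without any of 5 of the 8 libraries. Zfp512b was lower in libraries labelled 48h in Control (-0.83 ± 0.10, adjusted p = 4.24e-05) and in Mta123KO cells (-0.73 ± 0.22, adjusted p = 0.0453). The latter was lost without any of 7 of the 8 libraries, with spike-in scaling (0.0762) and with summed lines (0.406). It shares 67 exon bases with Uckl1 on the same strand, so that some reads could not be assigned to a single gene. On the opposite strand it shares 263 with Uckl1os.

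Zfp219 (chr14:52006077-52020733) ran from 59.6 to 78.7 CPM over the 16 libraries of the second set and from 52.0 to 140 CPM over the 18 single-mutant libraries. It was at 0.06 ± 0.09 and -0.03 ± 0.07 on the log2 scale in Mta123KO against Control labelled 2iL and 48h (edgeR adjusted p = 0.605 and 0.745). Labelled 2iL, Mta123KO line 1 lay below and line 2 above all Control libraries. It rose in Mta2_KO cells from 68.9, 67.8 and 67.1 CPM to 79.5, 83.3 and 77.7 (0.23 ± 0.04, adjusted p = 0.00167), a call lost in 1 fit of all 18 libraries (0.405). The difference of 0.15 ± 0.06 between Control labels (adjusted p = 0.0465) was lost under 5 of 6 other settings and without any of 7 of the 8 libraries. Exons of Zfp219 share 175 bases with Arhgef40, 266 with Tmem253 and 134 with Gm49086, all on the opposite strand.

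Zfp592 (chr7:80993681-81045164) and Zfp687 (chr3:95006590-95015448), whose coding starts are alike, had differences of opposite sign in Mta123KO cells labelled 2iL and of the same sign in Mta2_KO and Mta3_del/del cells. In Mta123KO cells labelled 2iL, Zfp592 was higher than Control (0.44 ± 0.14 on the log2 scale, edgeR adjusted p = 0.0280) and Zfp687 lower (-0.32 ± 0.06, adjusted p = 0.00229). Zfp592 was at 50.5 and 50.8 CPM in line 1 and 37.6 and 34.7 in line 2, against 28.5 to 36.3 in Control, and its call was lost with summed lines (adjusted p = 0.213), with spike-in scaling (0.0692), in 1 fit of all 16 libraries (0.0595) and without any of 4 of the 8 libraries. Zfp687 was at 48.5, 51.0, 46.3 and 48.6 CPM against 58.1 to 65.8 in Control, with both lines below every Control library, and its call too was lost with summed lines (0.106) and with spike-in scaling (0.121). Labelled 48h, neither passed the test (0.30 ± 0.19 and -0.09 ± 0.06). Zfp592 was at 70.4 and 71.4 CPM in line 1 and 41.5 and 44.6 in line 2, the widest gap between lines for this gene.

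Between culture labels, Zfp592 rose in Control cells labelled 48h (0.54 ± 0.10, edgeR adjusted p = 6.41e-04), and in Mta123KO cells it was at 0.39 ± 0.22 (adjusted p = 0.243), or 0.36 blocked by replicate number (adjusted p = 0.00487). Zfp687 was level in Control (0.01 ± 0.06) and 0.23 ± 0.06 higher in Mta123KO cells labelled 48h (adjusted p = 0.0240, but 0.0720 without the filter on low counts, 0.536 with spike-in scaling and over 0.05 without any of 5 of the 8 libraries). The Mta123KO call was also lost with summed lines. In the single mutants Zfp687 fell in Mta2_KO, from 89.7, 82.4 and 81.6 CPM to 57.4, 57.9 and 56.2 (-0.57 ± 0.05, adjusted p = 1.25e-05). The 736 genes tested on chromosome 3 had a median log2 difference of -0.50 in that comparison, against 0.00 over all genes, so that Zfp687 fell about as far as its chromosome, whose part in the result was not tested. It rose in Mta3_del/del from 52.1, 44.8 and 56.0 to 80.7, 75.4 and 73.2 CPM (0.53 ± 0.11, adjusted p = 0.0211), where the chromosome's median was -0.04. This call was lost without any of 3 of the 6 libraries. Zfp592 was at -0.22 ± 0.09 in Mta2_KO and 0.31 ± 0.09 in Mta3_del/del, neither past the test, although DESeq2 called both (adjusted p = 0.0426 and 0.0470). Zfp687 shares 254 exon bases with Pi4kb on the opposite strand.

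Wdr5 (chr2:27515157-27536535) did not pass the test in any of the 5 mutant comparisons, with log2 differences from -0.18 to 0.05. It was at 117 to 138 CPM in Control and 106 to 130.4 in Mta123KO libraries labelled 2iL (-0.11 ± 0.09, edgeR adjusted p = 0.306), and at 212 to 245 and 179 to 248 CPM labelled 48h (-0.11 ± 0.12, adjusted p = 0.454). Line 1 of Mta123KO was below every Control library under both labels, and line 2 was not. Wdr5 was 1.85-fold higher in libraries labelled 48h in Control (0.88 ± 0.07 on the log2 scale, adjusted p = 7.93e-07) and 1.83-fold in Mta123KO cells (0.87 ± 0.14, adjusted p = 0.00275, 0.215 with summed lines). The difference between the genotypes in this response was 0.01 ± 0.15 (adjusted p = 0.979). Of the 10 COMPASS partners of Wdr5, 5 were higher (29.5% of all genes tested) and 2 lower (29.0%) in Control labelled 48h than 2iL. In Mta123KO cells none was lower (10%) and 1 was higher (12.4%). That 1 was Rbbp5, which was higher in libraries labelled 48h (1.15 ± 0.05 in Control, adjusted p = 2.37e-08, and 0.63 ± 0.18 in Mta123KO, adjusted p = 0.0402). Its Mta123KO call was lost with summed lines, where 0 genes changed between labels in these cells. The difference between labels did not itself differ between the genotypes at an adjusted p under 0.05 for any of the 10 partners.

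**Figure D3:**
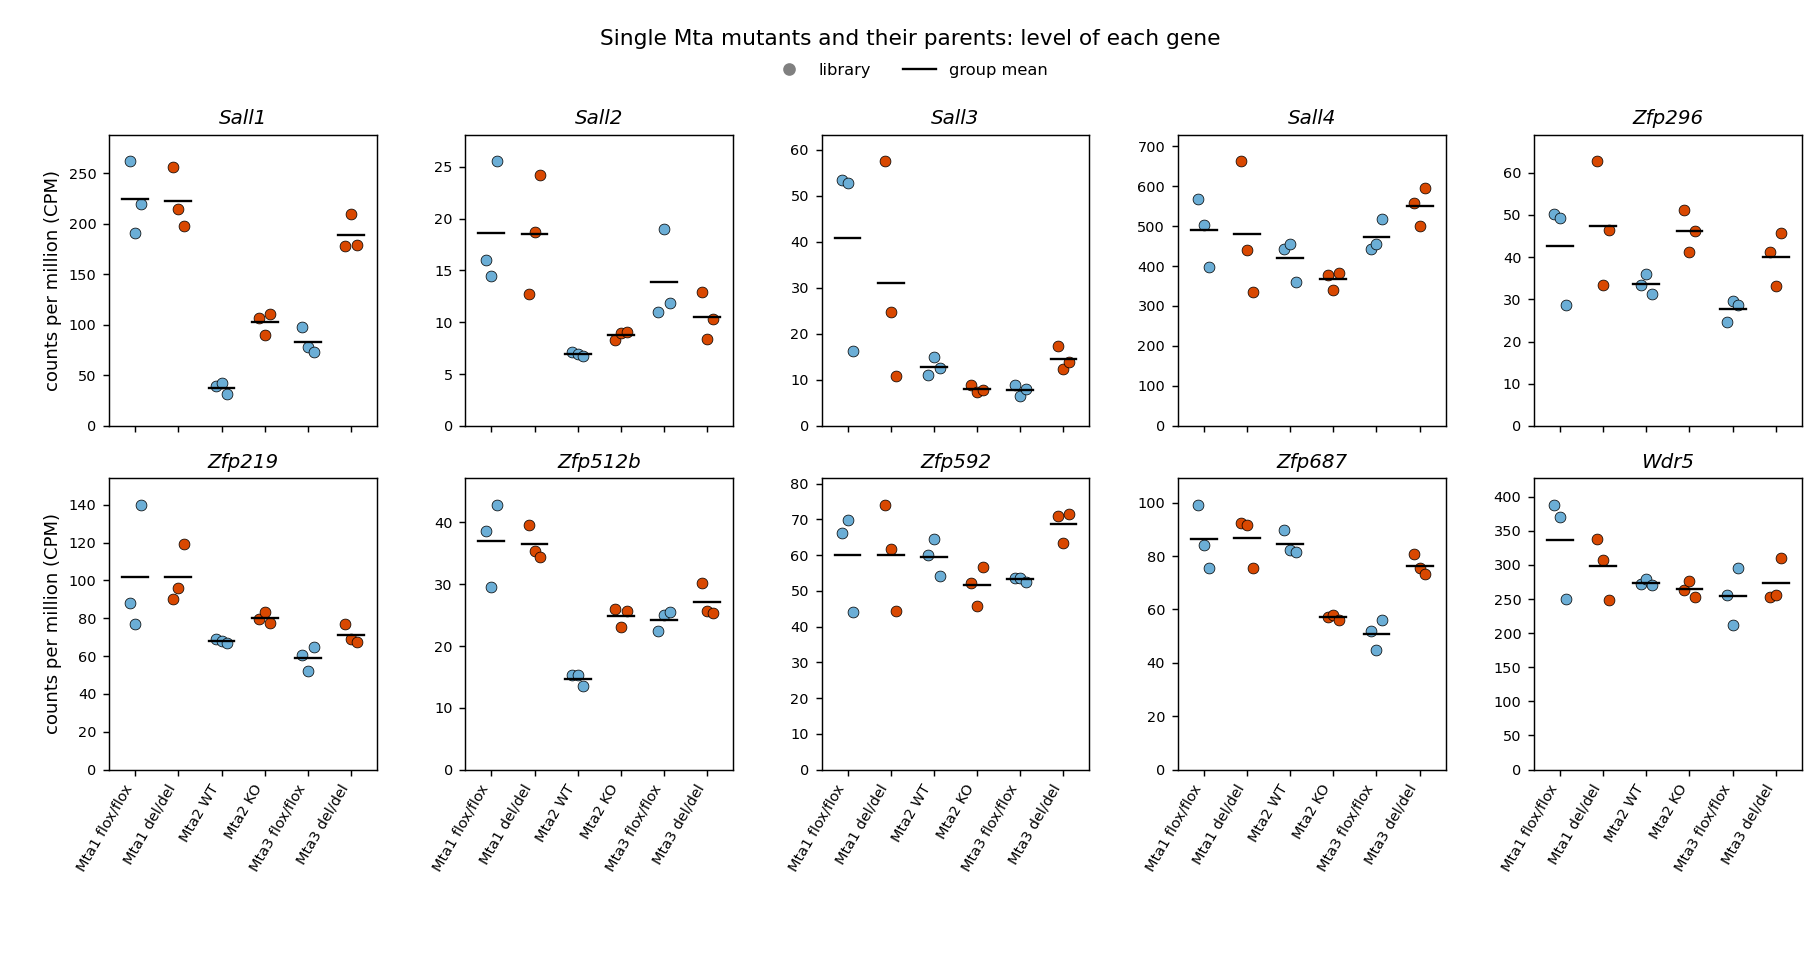
CPM (y axis, from 0, scaled per gene) of the 10 genes in the 18 libraries of the single mutants (orange) and their parents (blue), by group (x axis). Points are libraries and bars group means. The 3 Mta2_KO and the 3 Mta3_del/del libraries lie above their parents for Sall1, and the Mta1 series has the widest spread for Sall3.

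Across culture labels, 6 of the 10 genes were higher in Control libraries labelled 48h than labelled 2iL (29.5% of all genes tested) and 2 were lower (29.0%). In Mta123KO cells, 2 were higher (12.4%) and 3 lower (10%). Blocking by replicate number, which pairs libraries of a line, gave 4 higher and 4 lower, and 4882 and 4262 of 21505 genes in place of 2662 and 2155. The effect of genotype differed between the labels for 5 of the 10; it was more positive in libraries labelled 48h for Sall2 and Zfp687 (12.5% of all genes) and more negative for Sall3, Sall4 and Zfp296 (10.6%). The Zfp687 value (0.24 ± 0.08) was lost without any of 11 of the 16 libraries and without the filter on low counts, and was -0.02 with spike-in scaling. With the libraries of each line summed, only Sall2 kept this call (1 of the 10), and under the same setting none of the 10 kept a call between labels in Mta123KO cells, nor did any of 24445 genes, of which 3568 had an unadjusted p under 0.05. On the libraries themselves edgeR called 4817 genes and DESeq2 6295.

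**Figure D4:**
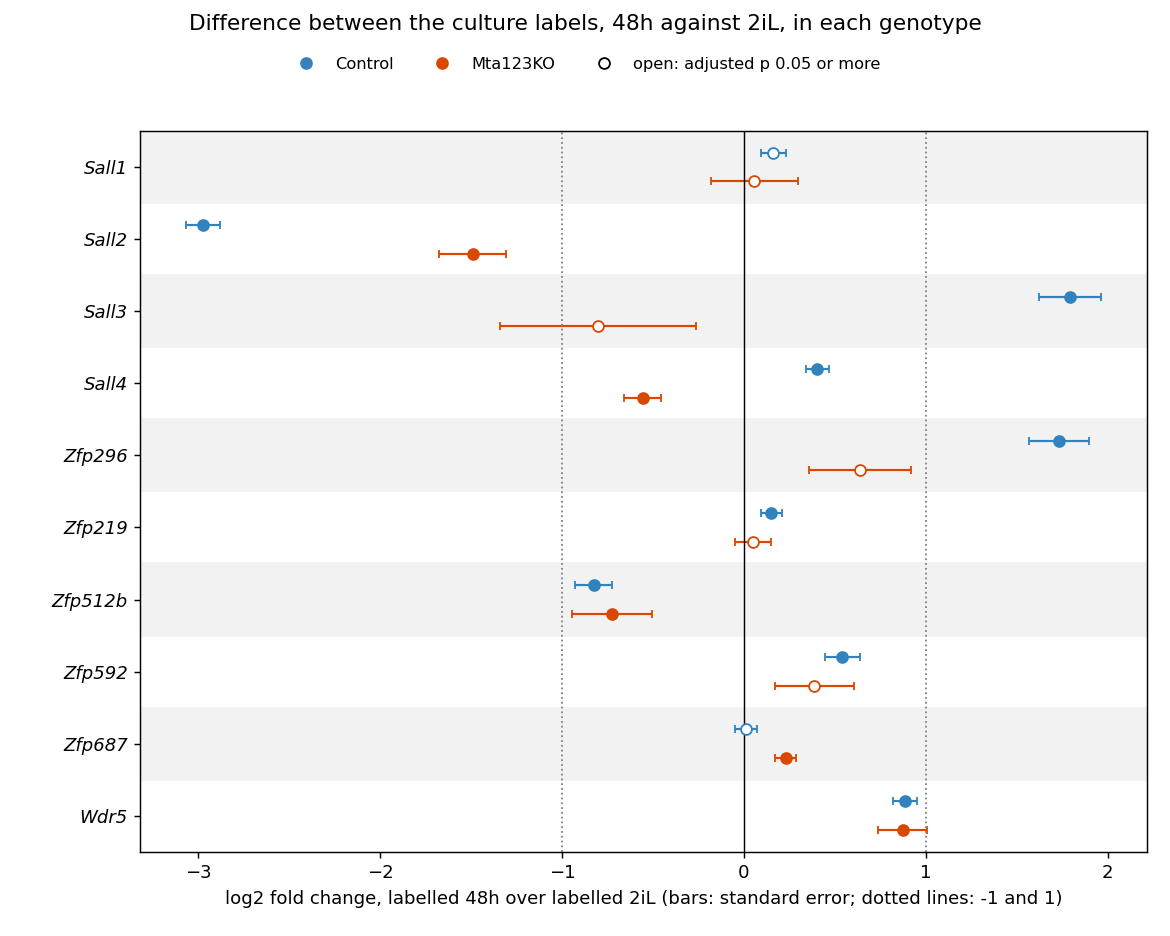
Log2 fold change of libraries labelled 48h over libraries labelled 2iL (x axis, bars are standard errors) of the 10 genes (y axis) in Control (blue) and Mta123KO cells (orange), with open points at an adjusted p of 0.05 or more. Wdr5 has nearly equal values in both genotypes, 0.88 and 0.87, while Sall3 and Sall4 lie on opposite sides of 0.

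Groups of related genes were set beside the shares over all genes given above (27.1% higher and 24.2% lower in Mta123KO labelled 2iL, 26.6% and 23.4% labelled 48h, 23.5% and 24.3% in Mta2_KO, 8.32% and 7.84% in Mta3_del/del). Values of these genes are from the main fit alone, which took libraries of a line as separate samples. Of 15 NuRD core subunits, 4 were higher and 7 lower in Mta123KO cells labelled 2iL, 5 and 5 in those labelled 48h, 6 and 4 in Mta2_KO and 4 and 2 in Mta3_del/del cells, the targeted genes included. Apart from these, Chd3, a remodelling ATPase of NuRD, rose by 2.20 ± 0.18 and 1.62 ± 0.28 on the log2 scale in Mta123KO cells (edgeR adjusted p = 2.69e-05 and 0.00133) and by 1.14 ± 0.07 in Mta2_KO (adjusted p = 2.01e-06). The median of the 15 was -0.22 and -0.02 in the 2 Mta123KO comparisons, against 0.01 over all genes. Of 6 other zinc finger genes with the FOG-type motif, which all held the 4 codons, 3 were higher and 1 lower in Mta123KO cells labelled 2iL, and 2 were higher and 2 lower of 5 tested labelled 48h. Bcl11b, a regulator of T cell development, rose by 1.81 ± 0.23 and 3.92 ± 0.27 (adjusted p = 2.42e-04 and 8.06e-06). Bcl11a fell by 2.50 ± 0.46 in cells labelled 2iL (adjusted p = 0.00185). Zfp521 rose in Mta2_KO by 3.24 ± 0.14 (adjusted p = 1.29e-07) and fell in Mta123KO cells labelled 48h by 1.22 ± 0.23 (adjusted p = 0.00212). The medians of those tested were 0.61 and 0.67 in the Mta123KO comparisons.

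Of the 10 COMPASS partners of Wdr5, 2 were higher and 2 lower in Mta123KO cells labelled 2iL, and 2 were higher and 3 lower labelled 48h, with medians of 0.04 and -0.06, counts near or under the shares over all genes except the 3 of 10 lower. Dpy30 fell by 0.72 ± 0.11 and 0.76 ± 0.07 (edgeR adjusted p = 5.88e-04 and 3.72e-05), and Kmt2a, a methyltransferase, rose by 1.05 ± 0.18 and 0.73 ± 0.15 (adjusted p = 0.00139 and 0.00395). Zmynd8 and Zfp532, the partners of Zfp592 and Zfp687, did not pass the test against Control under either label, and Zfp532 fell in libraries labelled 48h by 1.88 ± 0.08 in Control (adjusted p = 1.63e-08) and by 1.48 ± 0.28 in Mta123KO cells (adjusted p = 0.00697). The fall of Zfp532 in Mta123KO cells lost its call with summed lines. Pwwp2b, whose protein also binds MTA proteins, rose by 4.15 ± 0.27 and 2.99 ± 0.27 in Mta123KO cells (adjusted p = 8.57e-06 and 3.67e-05).

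Markers of cell state moved with these comparisons. The 4 general ES cell genes summed to 751 to 814 CPM in Control and 352 to 659 in Mta123KO libraries labelled 2iL (3 of 4 lower), and to 787 to 860 and 499.5 to 675 labelled 48h (3 of 4 lower, 1 higher). The summed level of 6 trophoblast genes was 15.5 to 17.0 CPM in Control and 69.0 to 375 CPM in Mta123KO libraries labelled 2iL, where 6 of 6 rose, and 15.4 to 20.2 against 137 to 711 CPM labelled 48h, where 4 of 6 rose. That of 8 naive pluripotency genes was 158 to 244 CPM in Control and 418 to 544 in Mta123KO labelled 2iL (5 of 8 higher), and 3678 to 4055 against 1912 to 2837 labelled 48h (6 of 8 lower). That of 6 formative and primed epiblast genes was 860 to 1418 against 233 to 338 CPM labelled 2iL (5 of 6 lower, 1 higher), and 77.1 to 88.7 against 80.8 to 116 labelled 48h (1 of 5 tested higher, 1 lower). That of 5 fibroblast genes was 1.205 to 2.48 CPM in Control and 6.27 to 7.77 in Mta123KO labelled 2iL (2 of 2 tested higher). Labelled 48h it was 1.71 to 1.98 against 2.44 to 5.385 CPM (1 of 2 tested higher). That of 5 neuroectoderm genes was 83.3 to 109 CPM in Control and 36.0 to 45.3 in Mta123KO labelled 2iL (4 lower). Labelled 48h it was 29.2 to 33.1 against 32.5 to 40.9 CPM (1 of 4 tested higher, 2 lower). The 6 primitive endoderm genes summed to 8.71 to 21.8 CPM in Control and 14.1 to 24.8 in Mta123KO labelled 2iL (1 higher, 2 lower), and to 4.34 to 4.97 against 17.9 to 21.3 labelled 48h (3 of 5 tested higher, 1 lower). In the single mutants, naive genes summed to 4770 to 5079 CPM in Mta2_WT and 3519 to 3643 in Mta2_KO (6 of 8 lower, 1 higher), trophoblast genes to 52.0 to 55.4 and 14.5 to 18.9 (4 of 6 lower), and fibroblast genes to 10.7 to 38.3 in Mta3_flox/flox and 5.67 to 6.37 in Mta3_del/del (1 of 3 tested lower). No gene of these lists was at 0 counts in every library of a group. The part of these states in the changes of the 10 genes was not tested.

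For Sall1, Sall2 and Sall3, which were among the genes with an absolute log2 fold change above 1 in a comparison of Mta123KO with Control, the 2 genes with the nearest profile over all 34 libraries were sought among 12741 genes, by the root mean square difference of log2 CPM centred in each set. For Sall1 these were Mast3 and Klf13, at 0.43 and 0.45, where the profile of Sall1 itself had a spread of 0.83. For Sall2 they were Diras1 and Phc1, at 0.55 and 0.56 with a spread of 1.23. For Sall3 they were Gpa33 and Sorl1, at 0.56 and 0.58 with a spread of 0.93. None of these had another of the 10 genes among its nearest.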

How the data were processed

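Reads were trimmed by the authors with Trim Galore and aligned to GRCm38 with TopHat2. featureCounts then gave counts over Ensembl genes, and the authors deposited the counts of each library without normalization (single-end reads in the single-mutant set, paired-end in the second). The handling of strand and of reads with several positions, and which of the 2 library kits served which library, are not given in the sources used here. Samples were grouped by their labels. The 92 spike-in RNAs of the second set were left out of totals and used for an alternative scaling. Tests used the quasi-likelihood method of edgeR 4.0.16 in R 4.3.3, after filterByExpr and TMM scaling, with Benjamini-Hochberg adjustment over all genes tested and only the groups compared in a fit. Errors are SD for CPM and SE for log2 differences. The same step was tested on simulated data. The genes and lists were chosen with earlier results of these data known. Named list genes are up to 3 with the largest changes per list, and nearest profiles needed a mean of 1 CPM in both sets. Alternatives were DESeq2 1.42.0, spike-in scaling, no filter, a replicate block, a single fit of each whole set, adding up the libraries of each line (summed lines), and leaving out each library. The 42 pairs of libraries of a group differed by 4.22 to 201 times the sampling noise (chi-square per degree of freedom). In Mta123KO cells, libraries of a line differed by 5.81 to 17.5 times it and those of different lines by 78.0 to 101. Mta2_KO replicates 1 and 3 differed by 4.22 times it, and by 72.3 and 70.1 from replicate 2. Mta2_WT replicates 1 and 2 differed by 8.24 times it, and by 174.5 and 201 from replicate 3. The main tests merged no libraries and took each as a separate sample. Same-numbered libraries deviated together in the Mta1 series (correlations of deviations from 0.52 to 0.74) and between culture labels of a genotype (0.39 to 0.45 in Control, 0.65 to 0.70 in Mta123KO, where the number also marks the line). The main tests did not pair them, and only the replicate block did. Gene names and positions are from GENCODE vM21, which matched 48349 and 21852 genes. The nearest profiles of 1 gene and 1 coding start are not reported here.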

Additional observations from a re-analysis of the deposited data

Results flagged for a closer look

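For 5 of the 10 genes the effect of the triple mutant differed between culture labels by the interaction test in edgeR. Over all genes tested it was more positive labelled 48h for 12.5% and more negative for 10.6%. Only Sall2 kept this call with summed lines. Zfp296 lost it without any of 8 of the 16 libraries, and Zfp687 without any of 11. The log2 difference of Mta123KO from Control labelled 48h minus that labelled 2iL was 1.501 for Sall2, -2.57 for Sall3, -0.94 for Sall4, -1.08 for Zfp296 and 0.24 for Zfp687. For Sall3 the Mta123KO lines differed more than the genotypes did in libraries labelled 2iL, at 6.74 CPM in line 1 and 25.6 CPM in line 2 against 6.98 CPM in Control. For Zfp687 the sign depended on scaling, with -0.02 under spike-in scaling, which shifted the median interaction of all genes by -0.26.

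Of 40 groups of 4 libraries tested for a library far from the others, 1 was marked, where chance gives about 1 in 20. Zfp219 was at 65.2 CPM in Control library 1_2 labelled 2iL, and the other 3 libraries lay between 66.8 and 67.1 CPM.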

How the results depend on the processing

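Of 40 changes of the 10 genes past the threshold, 38 were kept by DESeq2, 37 when lowly counted genes stayed in, 39 by the replicate block, 28 of 35 by a fit of the whole set, 13 of 30 by summed lines and 22 of 30 by spike-in scaling, with 1 turned in direction. Leaving out each library of a comparison in turn gave 340 pairs of a call and a left-out library, of which 284 kept the call, 56 lost it and 0 turned in direction, and 29 of the 40 calls were kept throughout. The cause of lost calls was not tested, except that summed lines have 2 samples a group.

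In the Mta1 series, where no gene passed, signs were unsettled. Zfp687 was at 0.0047 with DESeq2, 0.013 without the filter, 0.00057 with the block and 0.0057 in a fit of the whole set. Zfp219 was at 0.00032 without the filter and 0.027 with the block, and Zfp592 at 0.0062 without the filter and 0.0019 in a fit of the whole set. Leaving out 1 library gave -0.11 to 0.084 for Sall1, -0.25 to 0.28 for Sall2, -0.32 to 0.16 for Sall4, -0.081 to 0.34 for Zfp296, -0.17 to 0.29 for Zfp219, -0.16 to 0.091 for Zfp512b, -0.19 to 0.17 for Zfp592 and -0.088 to 0.090 for Zfp687.

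In Mta2_KO, DESeq2 called 4 of the 10 lower. A fit of all 18 libraries called 2 higher and 1 lower, and 2622 genes in place of 7460. Leaving out 1 library gave 2 to 4 lower, with 4 without Mta2_WT replicate 3. In Mta3_del/del, DESeq2 called 5 higher, and leaving out 1 library gave 0 to 5 higher, 3 (without Mta3_del/del replicate 1) to 4131 (without replicate 2) genes changed in place of 2508, and -0.061 to 0.16 for Wdr5. The median of all genes was shifted to -0.19 by DESeq2 and -0.17 without the filter there, and the share of higher among changed genes moved from 51.5% to 62.6% in a fit of the whole set.

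With summed lines, Mta123KO against Control gave 2 higher, 1 lower and 3758 genes labelled 2iL (11115 on libraries), and 0 higher and 4085 genes labelled 48h (10548 on libraries). Between labels in Mta123KO cells it gave 0 higher, 0 lower and 0 genes, and for the interaction 1 higher, 0 lower and 710 genes (5306 on libraries). With spike-in scaling, 0 were higher in Mta123KO labelled 48h, where Sall4 was at -0.14. Between labels in Mta123KO cells 1 was higher and 2555 genes changed. For the interaction 1 was higher, and Zfp512b was at -0.17, Zfp687 at -0.021 and Wdr5 at -0.25. This scaling moved the median of all genes to -0.18 in Mta123KO against Control labelled 48h, 0.18 between labels in Control and -0.26 for the interaction, and the share of higher calls from 50.4% to 61.9% between labels in Control and from 54.3% to 36.1% for the interaction. Without the filter, 1 was higher between labels in Mta123KO cells and 1 for the interaction, where Wdr5 was at -0.018, and -0.0093 with DESeq2. Zfp687 between labels in Control was at -0.0056 in a fit of the whole set.

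Leaving out 1 library of the second set gave -0.0045 to 0.12 for Zfp219 in Mta123KO labelled 2iL, and -0.018 to 0.10 for Sall4 and 1 to 2 higher labelled 48h. It gave -0.019 to 0.047 for Zfp687 between labels in Control. Between labels in Mta123KO cells it gave -0.11 to 0.22 for Sall1, -0.013 to 0.12 for Zfp219 and 1 to 2 higher. For the interaction it gave -0.24 to 0.079 for Sall1, -0.043 to 0.25 for Zfp512b, -0.072 to 0.083 for Wdr5 and 1 to 2 higher.

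The replicate block paired libraries by number. Between labels in Mta123KO cells it raised the genes changed from 4817 to 9144 and the higher among the 10 from 2 to 4. In Mta123KO against Control labelled 48h it left 1 higher, with Zfp512b at 0.60 (edgeR adjusted p = 0.0798). Same-numbered libraries of Mta123KO and Control share only a number (correlations from -0.30 to -0.02 labelled 2iL and -0.14 to 0.04 labelled 48h). Whether those of the Mta2 series (-0.20 to 0.43) and the Mta3 series (-0.07 to 0.36) were paired was not settled. The mean correlations there were 0.154 and 0.147 for the same number and -0.0893 and -0.075 for different numbers. Apart from the calls gained between labels, it changed no other call of the 10.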
